A study of Glycine max with 12 samples.

Results

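Seed storage proteins and their relatives were followed at 6 loci through the immature soybean (Glycine max) seed coat, namely Glyma12g34160 and Glyma13g36400 (2S albumins), Glyma10g03390 (vicilin-like), Glyma10g03400 (sucrose-binding protein), Glyma07g17030 (listed as a β-conglycinin alpha subunit) and Glyma18g41320 (protease inhibitor/seed storage/lipid transfer protein family). They comprised 8 splice models of the 78773 gene models measured, 3 of them belonging to Glyma10g03390 and 1 to each other locus. The study's tables also name Glyma12g34160 a glycinin subunit G7 and Glyma13g36400 a seed storage protein, and both are called albumins here after the other label. The loci were chosen by name from genes that the study listed for a difference between standard and defective seed coats. The values that selected them were those of the 100–200 mg stage for 5 loci, those of 50–100 mg for Glyma18g41320, and in part those of 50–100 mg in Harosoy (Glyma13g36400) and of 400–500 mg (Glyma12g34160 and Glyma13g36400). Glyma18g41320 is also listed at 100–200 mg, but with the values of 50–100 mg, and its deposited values at 100–200 mg have the opposite direction. Differences between the isolines in those libraries are therefore given here as a description and without a test.

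RNA-Seq was carried out on seed coats of 4 lines at 3 seed weight stages, 50–100, 100–200 and 400–500 mg, with 1 library for each line and stage and 12 libraries in all. Clark standard (CS) was a black seeded i R T line whose coat was intact, and Clark defective (CD) carried in the same genotype the net pattern mutation, in which the seed coat ruptures. Harosoy standard (HS) was a yellow seeded I r t line, also intact, and Harosoy defective (HD) carried the same mutation. The gene or genes behind the mutation were not known, and each defective line was 1 isoline made by repeated backcrossing, so that linked donor segments could accompany the mutation. Plants were greenhouse grown, and the coats were dissected from pooled seeds that had been sorted by weight.

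The 2S albumins are small, sulfur-rich seed proteins of the prolamin superfamily, to which the non-specific lipid transfer proteins and several protease and amylase inhibitors also belong. Vicilins are the 7S storage globulins, built from cupin domains, and the soybean sucrose-binding protein is a cupin relative of the vicilins that was first found through its binding of sucrose in membranes of developing cotyledons. Proteins of these families are best known from the storage vacuoles of cotyledon cells, which fill while the seed coat that surrounds them delivers sugars and amino acids to the embryo.

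Library size was recovered from the RPKM steps as 47.5 to 113 M hits per library, with a median of 75.7 M. A hit is an alignment of a read to a model, and a read could be placed on up to 25 models, so that splice models and close paralogs share reads and are not independent measurements. All intervals below are exact 95% intervals from the hits and cover counting error only. Reads were 75 bp from the GAII at 100–200 mg but 100 bp from the HiSeq2000 at the other stages, and the 100–200 mg stage cannot be told apart from the platform. In whole tissue, fewer cells of a type and less RNA per cell cannot be told apart. Nothing in the labels describes separate cultures of plants, and p-values measure only the spread between these libraries.

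The 6 loci fell into contrasting courses over seed development. Both albumins, the vicilin-like locus and the sucrose-binding locus were higher at 400–500 mg than at 50–100 mg in all 4 lines, whereas Glyma07g17030 and Glyma18g41320 fell to low levels. In every isoline pair the first 4 loci were lower in the defective coat, and the gap was widest at 100–200 mg except for Glyma13g36400 in Clark. Glyma07g17030 and Glyma18g41320 were higher in the defective coat at 100–200 mg.

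**Figure D1:**
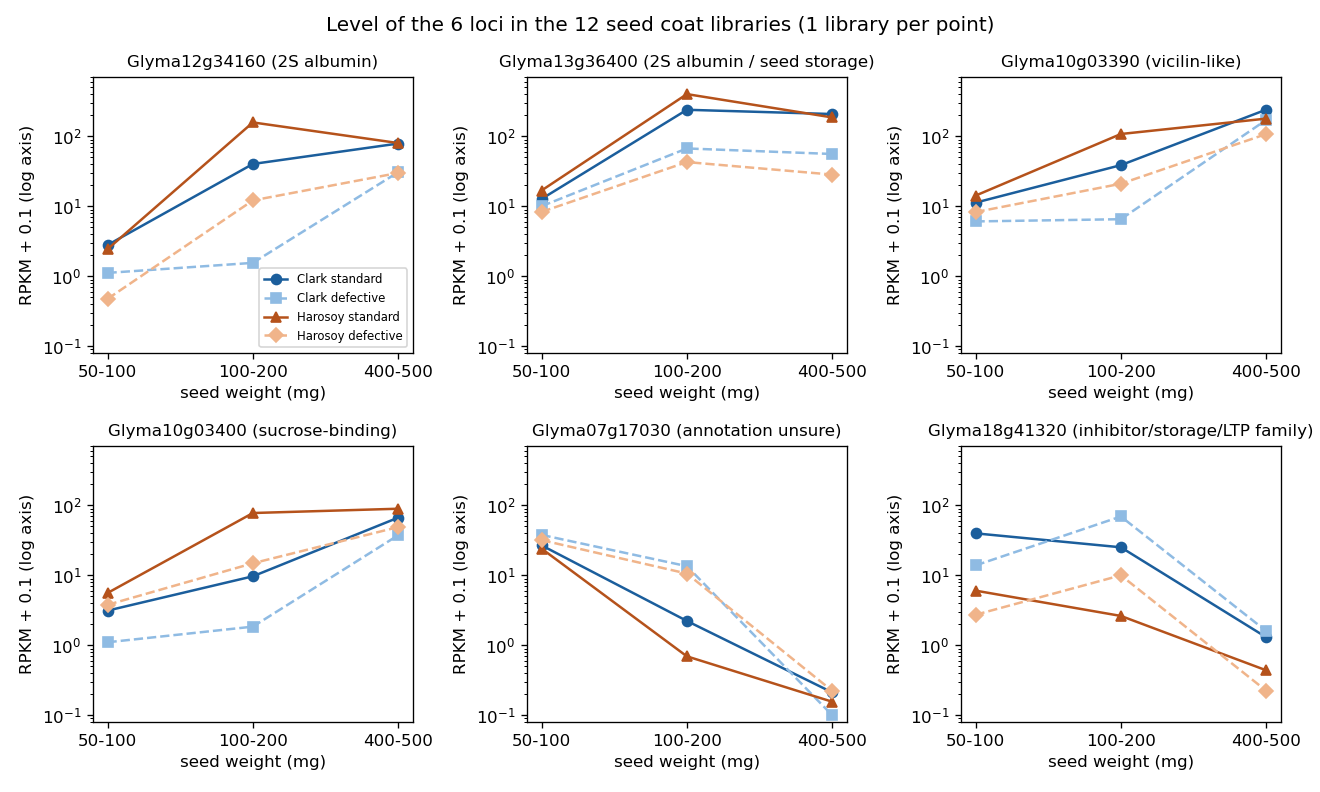
RPKM plus 0.1 on a log axis for the main model of each locus against seed weight stage, with 1 point per library, solid lines for standard and dashed lines for defective coats. The upper row and Glyma10g03400 are lowest at 50–100 mg, with each standard line above its defective isoline at every stage, while Glyma07g17030 and Glyma18g41320 end near 0 at 400–500 mg.

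Glyma12g34160.1, a 748-base model of a 2S albumin, stood at 2.70 RPKM in CS, 1.02 in CD, 2.34 in HS and 0.375 in HD at 50–100 mg. The same model measured 40.2 RPKM in CS, 1.46 in CD, 158 in HS and 12.1 in HD at 100–200 mg. Its level was 78.9 RPKM in CS, 30.7 in CD, 80.1 in HS and 29.9 in HD at 400–500 mg. Standard and defective coats did not overlap at any stage, but values of 100–200 and 400–500 mg had selected the locus. The share of all models without overlap was not counted, and nothing is read from this order. At 400–500 mg both standard lines and both defective lines lay close to each other. The step between the first stages was smallest in CD, where the level at 100–200 mg was 1.43-fold that at 50–100 mg, against 14.9-fold in CS, 32.1-fold in HD and 67.5-fold in HS.

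The difference of Glyma12g34160.1 was widest at 100–200 mg, when it was 27.6-fold lower in CD than in CS (interval 22.1 to 35.0, from 79 and 3398 hits) and 13.1-fold lower in HD than in HS (12.03 to 14.3). Later, at 400–500 mg, the gap was narrower and nearly equal in both backgrounds, with 2.57-fold (2.40 to 2.75) for Clark and 2.68-fold (2.52 to 2.85) for Harosoy. Among the youngest coats, where no library reached 5 RPKM, the locus was 2.65-fold lower in CD (2.02 to 3.49) and 6.24-fold lower in HD (3.95 to 10.3). Only 22 hits lay behind the HD value at this stage. HS at 100–200 mg placed the locus at rank 456 of all models by RPKM, whereas in CD at the same stage it was at rank 37511.

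Glyma13g36400.1, the other 2S albumin with a model of 871 bases, was the most abundant of the 6 loci at 100–200 mg in 3 of the lines. Its level at 50–100 mg was 12.6 RPKM in CS, 9.94 in CD, 16.7 in HS and 8.22 in HD. In the 100–200 mg libraries it had 239 RPKM in CS, 67.0 in CD, 401 in HS and 42.8 in HD, and in CD only Glyma18g41320.1 was higher. In the 400–500 mg libraries it had 208 RPKM in CS, 55.9 in CD, 186 in HS and 28.3 in HD. Unlike Glyma12g34160.1, it was highest at 100–200 mg in all 4 lines, on the platform that only this stage used. The value of HS at 100–200 mg ranked 139 among all models.

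Both standard coats exceeded both defective coats for Glyma13g36400.1 at every stage, but values of each stage had in part selected it. Nothing is read from this order. In Clark the gap was 1.27-fold at 50–100 mg (1.16 to 1.40), 3.57-fold at 100–200 mg (3.46 to 3.69) and 3.73-fold at 400–500 mg (3.57 to 3.90). In Harosoy it was 2.03-fold (1.83 to 2.26), 9.37-fold (8.98 to 9.79) and 6.58-fold (6.23 to 6.95) at the same stages. The albumins thus kept different ratios to each other in different libraries. Glyma13g36400.1 exceeded Glyma12g34160.1 46.0-fold in CD at 100–200 mg and 5.96-fold in CS, but only 1.82-fold and 2.64-fold in the same lines at 400–500 mg. In HD at 400–500 mg the ratio was 0.946, and both albumins were then at the same level.

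Glyma10g03390.1, the vicilin-like locus with a main model of 1816 bases, had 11.2 RPKM in CS, 5.98 in CD, 14.1 in HS and 8.17 in HD at 50–100 mg. Its level at 100–200 mg was 38.7 RPKM in CS, 6.45 in CD, 108 in HS and 20.9 in HD. It was at 400–500 mg the most abundant of the 6 loci in CS, CD and HD, with 241 RPKM in CS, 172 in CD, 179 in HS and 108 in HD. In CD the level hardly differed between the first stages (1.08-fold) and was 26.6-fold higher at 400–500 mg than at 100–200 mg. The other models of the locus, of 1515 and 1944 bases, followed it: Glyma10g03390.3 ran at 0.847 to 0.907 of the main model, and Glyma10g03390.2 at 0.318 to 0.612.

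Glyma10g03400.1, annotated as a sucrose-binding protein, is the next locus in the order of model numbers and has a model of 481 bases. Its level was 3.03 RPKM in CS, 1.005 in CD, 5.49 in HS and 3.69 in HD at 50–100 mg. It stood at 9.58 RPKM in CS, 1.75 in CD, 77.6 in HS and 14.8 in HD at 100–200 mg. The corresponding values at 400–500 mg were 66.7 RPKM in CS, 37.4 in CD, 89.3 in HS and 48.9 in HD. Within each background the defective coat was lower, but genotypes overlapped across backgrounds, and at 100–200 mg HD lay above CS. The vicilin-like main model exceeded the sucrose-binding model by 1.39-fold in HS at 100–200 mg and by up to 5.95-fold in CD at 50–100 mg.

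The vicilin-like locus was at 100–200 mg 6.001-fold lower in CD than in CS (5.59 to 6.45) and 5.15-fold lower in HD than in HS (4.93 to 5.39). The sucrose-binding locus was 5.48-fold lower in CD (4.20 to 7.27) and 5.25-fold lower in HD (4.75 to 5.82). These folds were alike in both backgrounds, although the levels were not. Both gaps were smaller at 400–500 mg, a stage that did not choose either locus: the vicilin-like model was 1.40-fold lower in CD and 1.66-fold lower in HD, and the sucrose-binding model was 1.79-fold and 1.83-fold lower.

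Glyma07g17030.1 ran in the opposite direction. At 50–100 mg it measured 26.7 RPKM in CS, 37.7 in CD, 24.0 in HS and 31.8 in HD. It had 2.13 RPKM in CS, 13.4 in CD, 0.596 in HS and 10.5 in HD at 100–200 mg. By 400–500 mg 6 hits were left in CS, none in CD, 3 in HS and 5 in HD. Both defective coats lay above both standard coats at the first 2 stages, of which 100–200 mg had selected the locus. The share of all models in such an order was not counted, and nothing is read from it. At the last stage all 4 libraries were at or near the floor of 3 hits. The defective coats had lost least of their first level at 100–200 mg, with 2.81-fold less in CD and 3.03-fold less in HD, against 12.6-fold less in CS (10.7 to 14.8) and 40.3-fold less in HS (27.8 to 60.9).

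Between 50–100 and 400–500 mg, Glyma07g17030.1 was at least 415-fold lower in CD, computed against the floor of 3 hits per library. The locus was 239-fold lower in CS (109 to 652), 428-fold lower in HS (146 to 2080) and 258-fold lower in HD (110 to 796). In the isoline pairs of 100–200 mg the level was 6.30-fold higher in CD than in CS (5.31 to 7.50) and 17.6-fold higher in HD than in HS (12.03 to 26.8). The label of the locus did not match its data. The recovered length was 694 bases, while 3 models annotated as β-conglycinin alpha chains had 1970, 2021 and 2106 bases, and its level fell where that of Glyma10g39150.1, the most abundant of these, rose. It is called by its identifier here.

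Glyma18g41320.1 has a model of 689 bases and belongs to the family that joins protease inhibitors, seed storage proteins and lipid transfer proteins. At 50–100 mg it had 39.7 RPKM in CS, 13.7 in CD, 5.94 in HS and 2.63 in HD. It had 25.1 RPKM in CS, 69.2 in CD, 2.53 in HS and 9.89 in HD at 100–200 mg. Its last levels, at 400–500 mg, were 1.20 RPKM in CS, 1.497 in CD, 0.339 in HS and 0.124 in HD, from 64, 49, 18 and 5 hits. Each Clark library exceeded the Harosoy library of the same genotype and stage. The difference between the isolines changed direction, and the highest stage was 50–100 mg in both standard lines and 100–200 mg in both defective lines.

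At 50–100 mg, Glyma18g41320.1 was 2.89-fold lower in CD than in CS (2.68 to 3.11) and 2.26-fold lower in HD than in HS (1.85 to 2.78). At 100–200 mg it was 2.76-fold higher in CD (2.61 to 2.92) and 3.91-fold higher in HD (3.19 to 4.84). The intervals at 400–500 mg included equal levels, with a defective to standard ratio of 1.24 (0.840 to 1.83) for Clark and of 0.366 (0.106 to 1.02) for Harosoy.

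The RPKM criteria of the study, a minimum of 5 RPKM in one of the isolines and a 2-fold ratio or more, were applied to each pair. At 100–200 mg, whose values selected 5 of the 6 loci, 4 of 6 were counted as lower and 2 of 6 as higher in the defective coat in each background. Among all models past the minimum, 1.74% were lower and 3.03% higher in Clark, and 8.5% were lower and 5.78% higher in Harosoy. At 50–100 mg, Glyma18g41320 was counted as lower in Clark, and Glyma18g41320 and Glyma13g36400 as lower in Harosoy, beside 1.02% and 0.273% of all models. No locus was counted as higher at that stage, when 2.91% of all models were so in Clark and 0.298% in Harosoy. Glyma13g36400 in Harosoy lay just inside the criteria with 2.03-fold, and Glyma10g03390.1 in Clark just outside with 1.87-fold.

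Both albumins were counted at 400–500 mg as lower in both backgrounds, beside 1.96% of all models in Clark and 4.66% in Harosoy. No locus was counted as higher, as 1.27% and 4.98% of all models were. The vicilin-like and sucrose-binding loci stayed under 2-fold at this stage, and Glyma07g17030 and Glyma18g41320 did not reach 5 RPKM.

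**Figure D2:**
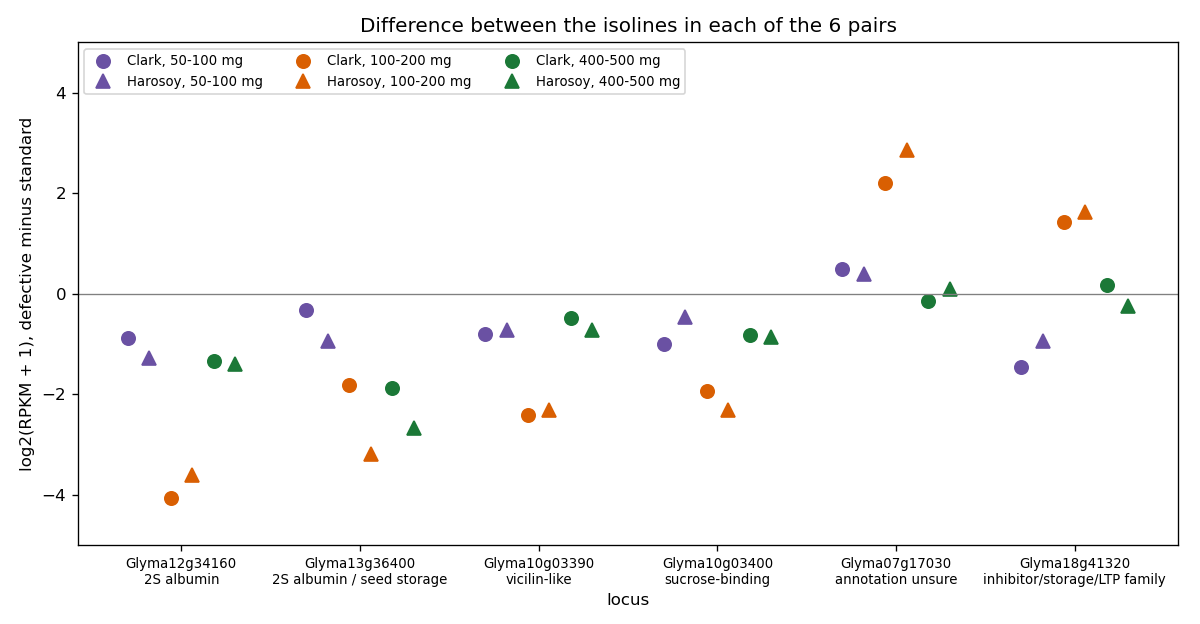
Difference between the isolines in log2(RPKM + 1), defective minus standard, for the main model of each locus, with a point for each of the 6 pairs (circles Clark, triangles Harosoy, colours for stages). All 6 points of the albumins, of the vicilin-like locus and of the sucrose-binding locus lie below 0, and those of Glyma18g41320 lie below 0 at 50–100 mg and above 0 at 100–200 mg.

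Outside 100–200 mg, 4 pairs remained. Glyma10g03390 and Glyma10g03400, which none of these pairs had chosen, were lower in the defective coat in all 4, as were 7.07% of the 46237 models that reached 1 RPKM in 2 libraries or more, while 3.61% were higher in all 4. The albumins were lower in all 4 as well, but some of these pairs had selected them, and nothing is read from their count. For the unselected loci the differences could be tested over the backgrounds with limma on log2(RPKM + 1), with Benjamini-Hochberg adjustment over all models and a threshold of 0.05. The fit used all 12 libraries with 1 shared error, which thus drew also on the 100–200 mg pairs that had selected these loci. With the 4 libraries of a stage alone, the SE of the vicilin-like model was 0.09 at 50–100 mg and 0.30 at 400–500 mg. At 50–100 mg the vicilin-like model differed by −0.76 ± 0.14 (SE) and the sucrose-binding model by −0.74 ± 0.18, and Glyma07g17030.1 by 0.44 ± 0.19. At 400–500 mg these differences were −0.61 ± 0.14, −0.84 ± 0.18 and −0.03 ± 0.19. None passed, as each had an adjusted p of 1 by limma, and the pair of backgrounds was the only repetition.

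The same fits called 0% of all models at 50–100 mg, with 646 of 46237 models at an unadjusted p under 0.05, and 0% at 400–500 mg, with 1282 models. Glyma12g34160.1, which was not listed at 50–100 mg, differed at that stage by −1.08 ± 0.17, again with an adjusted p of 1 by limma. Unadjusted, its p by limma was 0.00092, beside 0.0019 for the vicilin-like model and 0.0068 for the sucrose-binding model. The shared error behind these p-values drew also on the pairs that had selected these loci. The p-values may thus be partly set by that selection, and nothing is read from them.

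Whether the levels changed with seed development was tested between 50–100 and 400–500 mg, stages that shared a platform and whose contrast did not use the genotype. Over the 4 lines, 4 of the 6 loci rose and 2 fell. Of all 43849 models tested, 23.6% rose and 28.5% fell, so that a call in either direction was common. On the log2 scale the median change was −0.03 over all models and 3.37 over the 6 loci.

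Glyma12g34160.1 rose by 4.37 ± 0.13 (SE) on the log2(RPKM + 1) scale over the 4 lines (limma, adjusted p = 2.8e-05). The vicilin-like model rose by 4.02 ± 0.21 (adjusted p = 0.00012) and the sucrose-binding model by 3.89 ± 0.16 (adjusted p = 6.1e-05). Glyma13g36400.1 rose by 2.85 ± 0.38 (adjusted p = 0.0021), with a change of 3.94 in CS and 3.40 in HS but 2.38 in CD and 1.67 in HD. Of the 4 rising loci it was therefore the one with the widest spread between lines. Both standard lines lay above both defective lines, but isoline differences at these stages had in part selected this locus. Nothing is read from that order. Glyma07g17030.1 fell by 4.84 ± 0.14 (adjusted p = 2.8e-05) and Glyma18g41320.1 fell by 2.71 ± 0.39 (adjusted p = 0.0029). On this scale the fall of Glyma18g41320.1 was 4.21 in CS and 1.69 in HD, but the 1 RPKM added shrinks falls from low levels. As ratios of RPKM, its fall was 33.0-fold in CS, 9.18-fold in CD, 17.55-fold in HS and 21.2-fold in HD. Since isolines share a background, the 4 lines are not fully independent.

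**Figure D3:**
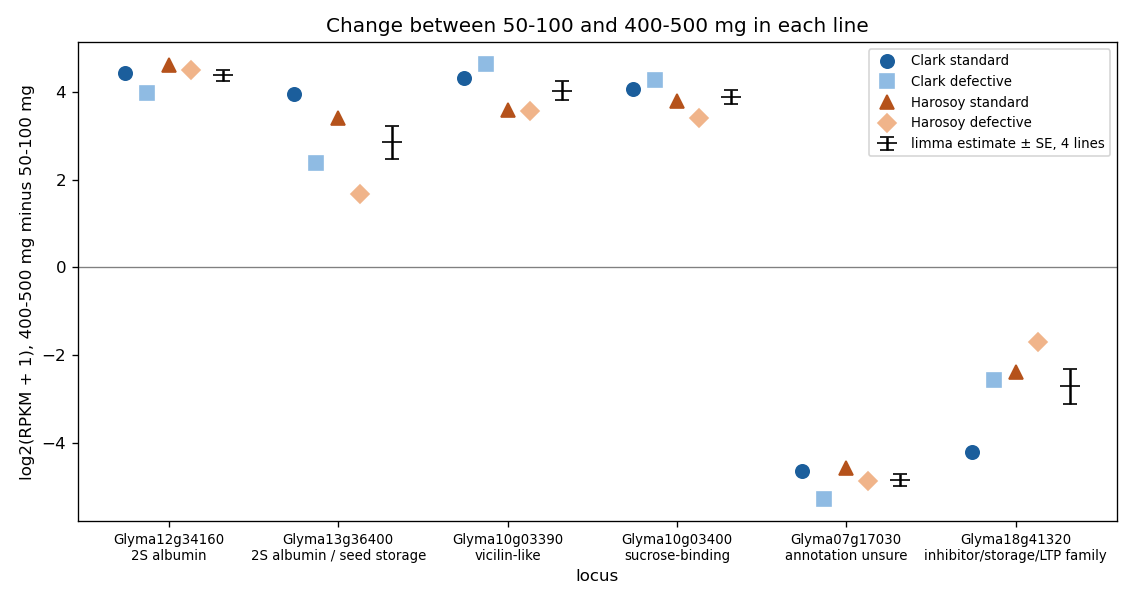
Change in log2(RPKM + 1) from 50–100 to 400–500 mg in each of the 4 lines, with the limma estimate and its SE in black, for the main model of each locus. All 4 lines lie above 3 for Glyma12g34160, Glyma10g03390 and Glyma10g03400 and below 0 for Glyma07g17030 and Glyma18g41320, and Glyma13g36400 spreads from 1.67 to 3.94.

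A difference between backgrounds in the change with stage was tested itself, and no locus passed. Glyma18g41320.1 had the largest estimate of the 6, 1.35 ± 0.60 in Harosoy minus Clark (limma, adjusted p = 0.52). Its estimate ran from 0.33 to 2.17 over 11 alternatives. The 1 RPKM added shrinks falls from low levels, and this locus started lower in Harosoy. As ratios of RPKM, its fall was 33.0-fold in CS and 9.18-fold in CD, and 17.55-fold in HS and 21.2-fold in HD. These ratios overlapped between backgrounds, so no smaller fall in Harosoy is read from the estimate. The vicilin-like model had −0.90 ± 0.21 (limma, adjusted p = 0.46). The fit called 0% of 43849 models, with 4288 at an unadjusted p under 0.05.

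Harosoy and Clark were compared over the 6 matched pairs of libraries, each of the same genotype and stage. Glyma18g41320.1 was lower in Harosoy by −2.00 ± 0.29 (limma, adjusted p = 0.0088), and lower in 6 of 6 pairs. The sucrose-binding model was higher in Harosoy by 1.35 ± 0.36 (adjusted p = 0.041), also in 6 of 6 pairs. That call rested on the fit, as it was lost in 8 of 14 alternatives, with adjusted p-values of 0.027 to 0.57 over all of them. The call of Glyma18g41320.1 was lost in 1 of 14, the fit without matched pairs (adjusted p = 0.25). Among all 46237 models, 8.33% were higher and 8.04% lower in Harosoy.

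The other 4 loci did not pass between the cultivars. Glyma12g34160.1 differed by 0.61 ± 0.41 (limma, adjusted p = 0.33) and the vicilin-like model by 0.44 ± 0.31 (adjusted p = 0.35). Glyma13g36400.1 differed by −0.15 ± 0.22 (adjusted p = 0.67) and Glyma07g17030.1 by −0.27 ± 0.14 (adjusted p = 0.22). Pigmented coats were extracted with a modified protocol, so that cultivar, seed colour and extraction cannot be told apart in these comparisons.

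Because the rising loci belong to families of the cotyledon, 8 models annotated as glycinins, β-conglycinin alpha chains and oleosins were taken as cotyledon and embryo markers. All 8 were above 0 in every library. Their summed level was 47.0 to 112 RPKM at 50–100 mg, 35.9 to 523 at 100–200 mg and 380 to 1168 at 400–500 mg, and between those outer stages 7 of the 8 rose by the limma test and none fell. The sum was lower in the defective coat in every pair, as were the summed levels of the 4 rising loci, but the highest marker in every standard coat was Glyma10g39150.1, a β-conglycinin alpha chain that the study also listed for its difference. Another marker, Glyma19g34770.1 (glycinin G2), was listed by the study as well. In Clark at 100–200 mg the markers were 3.37-fold and the 4 loci 4.28-fold lower. In Harosoy at that stage the markers were 1.21-fold and the 4 loci 8.22-fold lower. Values of that stage had selected the 4 loci, so no contrast with the markers is read. The part of cotyledon RNA in these results was not tested.

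The marker sum at 400–500 mg was 1.78-fold lower in CD and 1.41-fold lower in HD, and that of the 4 loci 2.01-fold and 2.49-fold lower. Leaving out Glyma10g39150.1, a choice made after seeing the data, left 7 markers, among them the listed Glyma19g34770.1. The sum of these 7 was still lower in the defective coat in all Clark pairs and in Harosoy at 50–100 mg. It was higher in HD than in HS 1.54-fold at 100–200 mg and 1.11-fold at 400–500 mg.

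Counted singly, 7 of the 8 markers were lower in CD at 100–200 mg and 6 of 8 at 400–500 mg. In Harosoy 4 of 8 were higher in HD at 100–200 mg and 5 of 8 at 400–500 mg, with a median log2 difference of 0.03 and 0.24. The 4 rising loci were lower in HD at both stages, but values of these stages had in part selected them. No contrast with the markers is read from this. The 4 at 100–200 mg were close in model number, Glyma03g32030.1 with Glyma03g32020.1 and Glyma20g28650.1 with Glyma20g28660.1. The latter had 105 and 106 RPKM in HD and 59.8 and 61.3 in HS. How many reads such models shared was not measured, so counts, medians and sums of markers may hold 1 signal repeatedly. Glyma10g39150.1 had 301 RPKM in HS and 90.4 in HD at 100–200 mg, while Glyma03g32030.1, glycinin G1, was higher in HD by 5.15 on the log2 scale. The seed coat markers, the proline-rich cell wall proteins PRP1 (Glyma09g12200.1) and PRP2 (Glyma09g12260.1), differed between the isolines as well. PRP1 had 874 RPKM in CS, 6181 in CD, 162 in HS and 5890 in HD at 100–200 mg, and PRP2 had 809, 174, 3438 and 8.68 RPKM. For both genes the defective coat lay nearer to its own 50–100 mg level than the standard coat of that background did.

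**Figure D4:**
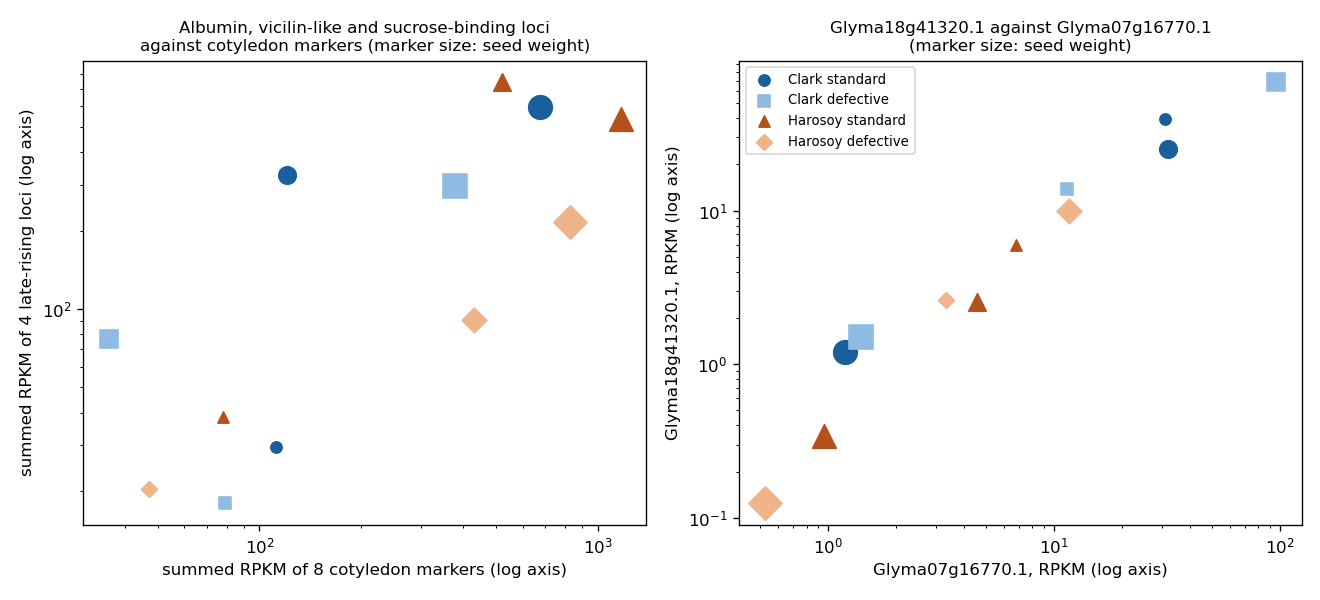
Left, summed RPKM of the 4 rising loci against the summed RPKM of 8 cotyledon markers in the 12 libraries; right, Glyma18g41320.1 against Glyma07g16770.1, all on log axes, with larger symbols for heavier seeds. On the left HD at 100–200 mg has 431 RPKM of markers and 90.6 RPKM of the 4 loci, and HS has 523 and 745. On the right the 12 libraries run along a diagonal.

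Other seed storage models that the study had listed for both backgrounds at 100–200 mg were set beside the 6 loci. Of these 15, which were selected on the same libraries and are not independent evidence of a direction, 9 were counted as lower and 6 as higher in the defective coat in each background. The lowest in both was Glyma10g39170.1, with a log2 difference of −2.75 in Clark and −4.51 in Harosoy, and the highest in both was Glyma07g16090.1, with 1.77 and 3.26. The backgrounds at 400–500 mg went apart, with 3 of 15 counted as lower in Clark and none in Harosoy, where 4 of 15 were counted as higher. Among all models, 1.96% were lower in Clark, and 4.66% were lower and 4.98% higher in Harosoy. Glyma20g28640.1 and Glyma20g28460.1 had nearly equal hits, with 3629 and 3625 in HS and 5882 and 5880 in HD. Both were counted as lower at 100–200 mg and as higher in HD at 400–500 mg. Counts over the 15 may therefore hold 1 signal repeatedly. Both albumins were lower in both backgrounds at that stage, as given above, but values of that stage had in part selected them. No contrast with the 15 models is therefore read from this.

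Between 50–100 and 400–500 mg, 8 of the 15 rose and 6 fell by the limma test, from −6.09 for Glyma18g53150.1 to 6.59 for Glyma10g39170.1. Both courses seen among the 6 loci were thus present in the list. Glyma07g16770.1 was among the 15 and also among 6 models of the protease inhibitor, seed storage and lipid transfer family. Of these 6, 4 passed the filter, and 2 of them fell and none rose. Between cultivars 1 of the 5 that passed was lower in Harosoy and none was higher. Glyma01g38340.1, another model annotated as vicilin-like, rose by 3.70 with seed weight, beside 4.02 for Glyma10g03390.1, but at 400–500 mg it was higher in HD than in HS by 1.33 on the log2 scale and lower in CD than in CS by 0.64.

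Likeness of pattern was measured by Pearson r of log2(RPKM + 1) over the 12 libraries, among the 31175 models that reached 5 RPKM in 1 library or more, and is given with no p because stages and isolines share most of their variation. Glyma07g16770.1, of the same family, was most like Glyma18g41320.1 (r = 0.99), and it shared the change of direction: its level was 31.0 RPKM in CS and 11.4 in CD at 50–100 mg, and 31.7 and 96.2 RPKM at 100–200 mg. Next came Glyma18g51990.1 (r = 0.98) and Glyma03g39930.1 (r = 0.97). Reads could be placed on several models, and how many the first pair shared was not measured. Its ratio was not constant, and ran from 0.781 in CS at 50–100 mg to 4.21 in HD at 400–500 mg.

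Glyma07g17030.1 was most like Glyma18g49570.1, Glyma07g18130.1 and Glyma06g12550.1 (each r = 0.99). The sucrose-binding model was most like a model of its neighbour, Glyma10g03390.2 (r = 0.99), followed by Glyma13g38910.1 (r = 0.97) and Glyma06g19000.1 (r = 0.96). How many reads the sucrose-binding and vicilin-like loci shared was not measured, so they may not be independent. The vicilin-like model was most like Glyma02g26860.1, Glyma10g39170.1 (each r = 0.98) and Glyma06g47750.1 (r = 0.97). The albumins were not each other's nearest pattern (r = 0.87): Glyma12g34160.1 was closest to Glyma11g18240.1, Glyma14g38860.1 (each r = 0.97) and Glyma02g21830.1 (r = 0.96), and Glyma13g36400.1 to Glyma20g19630.1 (r = 0.96), Glyma20g19620.1 and Glyma16g06100.1 (each r = 0.95).

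Similar shape did not mean similar range. Glyma11g18240.1 varied between 4.49 and 6.14 RPKM, while Glyma12g34160.1 varied between 0.375 and 158 RPKM. Glyma20g19630.1, by contrast, had 13.8 to 635 RPKM, with 209 in CS and 110 in CD, and 635 in HS and 54.8 in HD, at 100–200 mg.

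Next to the loci in the order of model numbers, most models were near 0. Beside Glyma12g34160, the only model above 1 RPKM within 3 loci was Glyma12g34150.1, with 9.32 to 13.6 RPKM over all libraries. Beside Glyma13g36400, Glyma13g36410.1 had 10.9 to 16.1 and Glyma13g36430.1 6.19 to 13.8 RPKM, and the other 4 stayed under 0.2 RPKM. None of the 6 neighbours of Glyma07g17030 reached 1 RPKM. Around Glyma18g41320 the most abundant was Glyma18g41310.1, with 7.60 to 28.0 RPKM, whose isoline difference at 50–100 mg was 0.36 in Clark and −0.13 in Harosoy on the log2 scale. The vicilin-like and sucrose-binding loci adjoin each other, and of the remaining neighbours Glyma10g03430.2 was the highest, with 2.83 to 6.59 RPKM.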

How the data were processed

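RNA-Seq of 12 seed coat libraries was used. The authors mapped reads of 75 or 100 bp to 78773 cDNA gene models with Bowtie, allowing 3 mismatches and 25 alignments, and deposited RPKM per model and library, each library normalized on its own. Lengths and totals that make the hits whole were recovered for 71411 models, and 99.5% of the lengths were within 0.05 of a whole number. Comparisons of the authors' own (folds and p-values from DESeq) were not used. Models tested had at least 1 RPKM in at least 2 libraries of the fit, and log2(RPKM + 1) was fitted with limma 3.58.1 in R 4.3.3 with a trend, and a block for isoline pair, line, or genotype and stage. The fits were tested on simulated data. A locus is described by its model with the highest mean RPKM.

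The members, lists and tests were chosen with earlier results of these data known. Named besides the 6 loci are the 3 loci most alike in pattern, the neighbours within 3 loci, and the lowest and highest of each list. Markers named singly, Glyma01g38340.1 and Glyma20g19630.1 follow from these lists. Alternatives were other pseudocounts, filters, scalings, blocks and splice models, and leaving out lines or pairs. The genome sequence and chromosome positions were not used here. Python 3.11.15 with numpy 2.4.6, pandas 2.3.3, scipy 1.17.1, numba 0.67.0 and matplotlib 3.10.9 was used.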

Additional observations from a re-analysis of the deposited data

Results flagged for a closer look

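Glyma18g41320.1 differed between the isolines in opposite directions at different stages. The log2 difference, defective minus standard, was −1.47 in Clark and −0.94 in Harosoy at 50–100 mg, and 1.43 in Clark and 1.63 in Harosoy at 100–200 mg. The difference between the stages was not tested, because the 50–100 mg values had chosen the locus and the stages were read on different platforms.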

How the results depend on the processing

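Every change of the 6 loci between 50–100 and 400–500 mg kept its direction and its call under all 13 alternatives, with adjusted p-values up to 0.018. The number of models called for that contrast was 22838, and 14985 with a minimum of 5 RPKM; leaving out 1 line gave 15649 to 21705. Between cultivars 7568 models were called, 2246 without the matched pairs and 2069 to 5249 when 1 matched pair was left out, and the lowest count came without the defective pair of 100–200 mg. At 400–500 mg the fit without isoline pairs called 1 model between genotypes instead of 0. At least 3-fold left 0 loci counted in either pair at 50–100 mg and 1 in either pair at 400–500 mg. A minimum of 1 RPKM gave 3 loci in Clark at 50–100 mg, and in Harosoy at 50–100 mg a minimum of 10 RPKM gave 1 locus and rescaling by the median ratio gave 1. No isoline difference counted in a pair turned its direction in 120 alternatives of the pair ratios. With a pseudocount of 5 RPKM, 24 of 36 moved beyond their counting interval, and 10 of 36 did so with rescaling by the median ratio. With the other splice models, 3 moved for Glyma10g03390.2 and 2 for Glyma10g03390.3. The levels of Glyma07g17030.1 at 400–500 mg rest on 6 hits or fewer. The labels give no shared replicate numbers, and the blocks used were isoline pairs, lines and matched libraries.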
